A study of Mus musculus with 15 samples.

Results

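The transcriptome of 2D organoid monolayers exposed to spray-dried plasma protein (SDPP) was compared with that of monolayers kept in medium control (MC). SDPP is a powder of porcine blood plasma, and its soluble, undigested fraction was put on the apical side of the cells. The comparison takes in 6 of the 15 arrays of the series, namely the 3 labelled with SDPP and the 3 labelled as media blank. The other 9 arrays come from casein (CAS), soybean meal (SBM) and yellow mealworm (YMW), with 3 arrays each. Cells in all 5 groups were duodenal organoid cells from female wild type C57BL/6J mice of 9 weeks, and exposure lasted 6 h. The protein dose is given as 4% w/v, and a concentration by weight per volume that the methods also state does not equal it, so the dose is not certain. The SDPP powder was suspended in DMEM-F12, and its supernatant was added to monolayers in W-ENR, the growth medium with WNT3A, R-spondin, noggin and EGF. The MC is described as DMEM-F12 only, and the methods do not state whether its wells also held W-ENR. The labels do not tie a replicate number to a mouse, and where replicates share a mouse or a plate the p-values measure that narrower spread.

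The duodenal epithelium is renewed from stem cells at the crypt base, whose daughters divide, leave the cycle and mature into absorptive enterocytes or into secretory Paneth, goblet, enteroendocrine and tuft cells. Epithelial cells also carry sensors of foreign nucleic acid and of bacterial wall fragments, and they answer type I and III interferons by transcribing a shared set of interferon-stimulated genes. Small nucleolar RNAs (snoRNAs) are short nuclear RNAs that guide the chemical modification of ribosomal RNA, and many of them are cut out of the introns of genes for ribosomal and translation proteins.

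The 3 MC arrays were not alike, and this bears on every comparison with them. The mean log2 intensity of 23 enterocyte markers was 9.44, 9.03 and 7.97 on the SDPP arrays and 8.01, 10.02 and 10.06 on MC replicates 1, 2 and 3. For 29 genes of mitosis it was 8.30, 8.42 and 8.64 with SDPP, against 8.66, 7.72 and 7.26 in MC. MC replicate 1 therefore lay within the SDPP range for enterocyte markers and just above it for mitosis, and MC replicates 2 and 3 had more enterocyte and less mitotic transcript. SDPP replicate 3 had the lowest enterocyte level of its group, so the SDPP arrays also differed among themselves. Over all genes, MC replicate 1 correlated with the SDPP arrays at 0.993 to 0.996, and MC replicate 3 at 0.977 to 0.990, as a description across genes that share arrays and probes. The defining enterocyte marker Alpi, intestinal alkaline phosphatase, was at 12.48, 12.28 and 11.53 with SDPP, against 11.58, 12.76 and 12.83 in MC. Lyz1 of Paneth cells, Tff3 of goblet cells and Chga of enteroendocrine cells were likewise above background on all 6 arrays. Of the markers of other cell types, 9 of 14 for fibroblasts, 6 of 13 for leukocytes and 4 of 10 for endothelium were above background, and none of these 3 lists had a member past the threshold (1 fibroblast marker was lower without overlap). The mean over all arrays of the defining markers Dcn, Ptprc, Adgre1, Pecam1, Cdh5 and Kdr was not above background. In such bulk samples, fewer cells of a type and less RNA per cell cannot be told apart.

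The study's threshold asks for an unadjusted limma p below 0.05 together with a change of 1.5-fold or more. Of 18820 genes, 306 passed for SDPP against MC, which is 1.63%, with 212 higher (1.13%) and 94 lower (0.499%). None had an adjusted p under 0.05 (0.0%), while 2259 had an unadjusted p under 0.05 (12.0%), and the lowest adjusted p was 0.0683. A gene had no overlap when all 3 SDPP arrays lay above, or all 3 lay below, the 3 MC arrays. This held for 2025 genes (10.8%), with 916 higher (4.87%) and 1109 lower (5.89%), and after a second quantile normalization for 2221 genes, with 1258 higher and 963 lower. No overlap is the most extreme order of 3 arrays against 3, with an exact permutation p of 0.1. The share of 10.8% is near that, so the count alone does not show a difference between the groups. Both conditions held for 85 genes (0.452%), namely 64 higher (0.34%) and 21 lower (0.112%), and of these 64 and 19 were above background. The remaining 221 genes past the threshold overlapped between the groups, and for 178 of them MC replicate 1 lay within the range of the SDPP arrays. Both conditions use the same 6 arrays, so one is no support for the other. The 85 genes are described below by their values.

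How far these counts rest on single arrays was read by leaving each out. Without MC replicate 1, 1379 genes passed the threshold and 3083 had an adjusted p under 0.05, whereas 142 and 85 passed the threshold without MC replicate 2 and without MC replicate 3. Without SDPP replicate 1 and without SDPP replicate 3, 496 and 146 passed. The count without overlap and past the threshold was 216 without SDPP replicate 1 and 1372 without MC replicate 1, and it lay between 61 and 86 without any of the other 4 arrays. The median SD over genes was 0.113 among the SDPP arrays and 0.137 among the MC arrays. The fit uses 1 variance for all groups, so the SE of a gene that varied more in the MC is understated. Of the 85 genes, 30 passed the threshold with each of the 6 arrays left out in turn, 24 of them higher and 6 lower. Without MC replicate 3, 49 of the 85 still passed.

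The 2 kinds of control gave differences of unequal size. For the 64 higher genes, the median difference on the log2 scale was 0.47 from MC replicate 1 and 0.80 from the mean of MC replicates 2 and 3, and for the 21 lower genes the sizes were 0.43 and 0.86. The MC array nearest to SDPP was replicate 1 for 41 of the 64 higher and 16 of the 21 lower genes. At the edge of the condition, the histone gene H4f16 was just inside, with SDPP at 9.21, 9.50 and 9.82 and the MC at 9.21, 8.85 and 8.63. Klhl5 was just outside, with a lowest SDPP array and a highest MC array both at 6.09. Among lower genes, Tmem41b was just inside, at 8.92 with SDPP replicate 1 and 8.92 in MC replicate 1, and Nipal1 was just outside, with 8.32 on both of these arrays. H4f16 did not pass without SDPP replicate 3 (0.46) or MC replicate 3 (0.48), and Tmem41b not without SDPP replicate 3 (-0.57) or MC replicate 3 (-0.51).

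**Figure D1:**
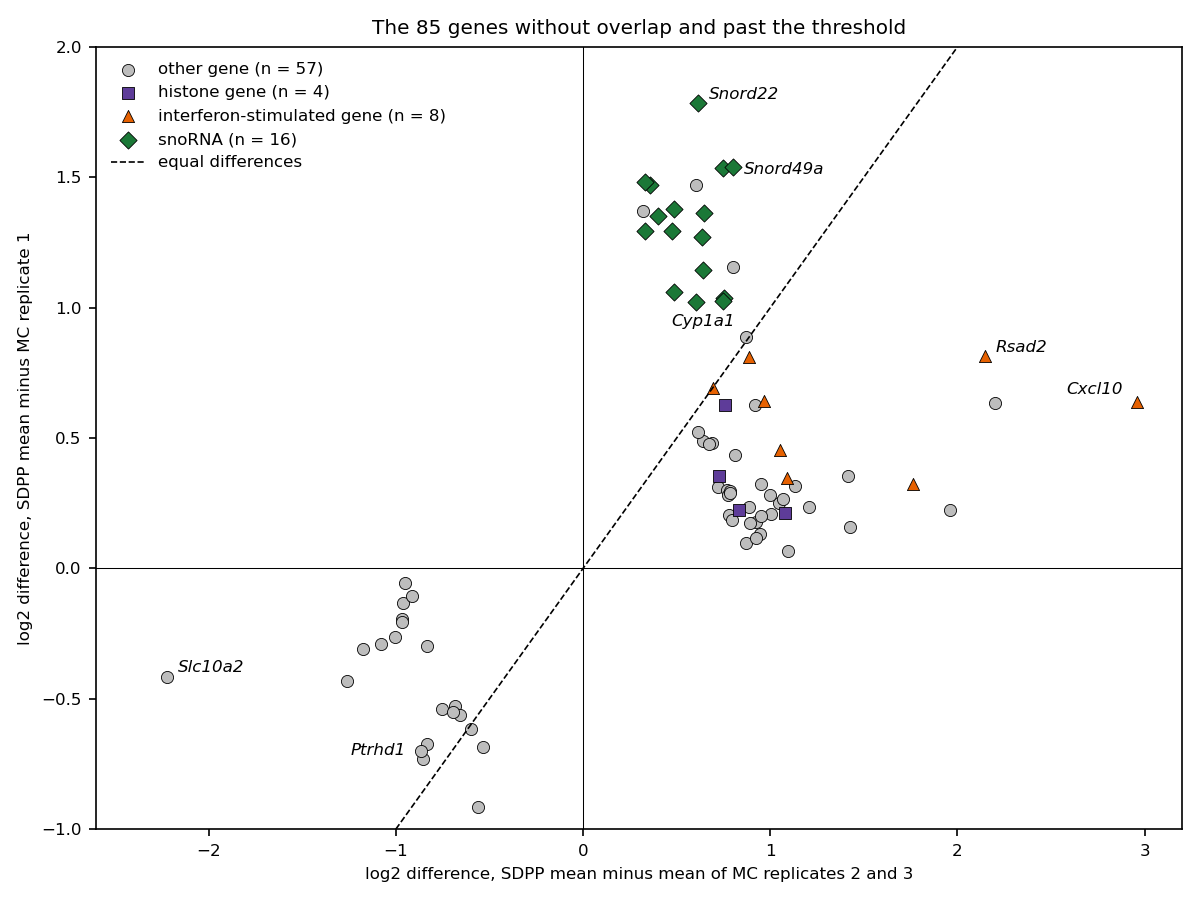
The 85 genes without overlap and past the threshold, each by its log2 difference of the SDPP mean from MC replicates 2 and 3 (x axis) and from MC replicate 1 (y axis). The 16 snoRNAs lie above the dashed line of equal differences, and most of the interferon-stimulated genes, Cxcl10 furthest, lie below it.

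Several interferon-stimulated genes rose with SDPP. Of 34 members above background, 9 passed the threshold and were higher with SDPP (background 1.65% of genes above background) and 15 were higher without overlap (background 4.87%), while no member was lower by either measure. Their median log2 fold change was 0.28, against 0.01 for all genes above background. The median was 0.38 against MC replicate 1 and 0.26 against MC replicates 2 and 3, but none of the 8 members that met both conditions passed the threshold with MC replicate 1 as the only control. The mean level of the list was 6.59, 6.79 and 6.64 on the SDPP arrays and 6.25, 6.24 and 6.28 on the MC arrays. These MC means were close together, but single members differed among the MC arrays, in both directions, as given below. Linear intensities summed over the measured members ran from 5019 to 5780 with SDPP and from 3995 to 5747 in MC, and so overlapped.

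Cxcl10, a chemokine that draws activated T cells, had the largest rise of the 64 genes. Its log2 intensity was 7.29, 7.78 and 7.95 with SDPP, against 7.04, 4.83 and 4.59 in MC, 4.55-fold higher (log2 fold change 2.19 ± 0.50 SE, adjusted p = 0.314). The groups did not overlap, but MC replicate 1 was close to the lowest SDPP array and the other MC arrays were far below. Rsad2, which encodes the antiviral enzyme viperin, was at 7.28, 7.58 and 7.62 with SDPP, against 6.68, 5.45 and 5.24 in MC (1.71 ± 0.40, adjusted p = 0.314). Ifit2, an antiviral protein of the IFIT family, was at 5.26, 5.21 and 5.30 with SDPP, against 4.93, 3.70 and 3.29 in MC (1.28 ± 0.32, adjusted p = 0.314). All 3 genes thus had MC replicate 1 between the SDPP arrays and the other MC arrays. Cmpk2, a mitochondrial nucleotide kinase transcribed beside Rsad2, was at 6.30, 6.37 and 6.25 with SDPP, against 5.96, 5.37 and 5.07 in MC. Gbp7, a guanylate-binding GTPase, was at 5.97, 6.14 and 6.41 with SDPP, against 5.71, 5.08 and 5.16 in MC. These 5 genes passed the threshold with each of the 6 arrays left out in turn.

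Other members had MC arrays that were nearly level. Usp18, the protease that removes ISG15 and dampens interferon signalling, was at 6.62, 6.92 and 6.93 with SDPP, against 6.01, 5.98 and 5.89 in MC (0.86 ± 0.37, adjusted p = 0.387). Ifit3 was at 6.58, 6.87 and 6.65 with SDPP, against 6.06, 5.87 and 5.60 in MC (0.86 ± 0.33, adjusted p = 0.37). Ifit3b, a near copy of Ifit3 whose signal may be shared with it, was at 4.37, 4.80 and 4.62 with SDPP, against 3.90, 3.95 and 3.85 in MC. The gap to the nearest MC array was wider than the spread within SDPP for Usp18 and Ifit3. Usp18 did not pass without SDPP replicate 2 (0.82) or replicate 3 (0.81), nor without MC replicate 2 (0.87) or replicate 3 (0.83). Ifit3 did not pass without SDPP replicate 2 (0.77) or MC replicate 3 (0.74), and Ifit3b did not pass without SDPP replicate 2 (0.59). Ifit1 was at 7.95, 8.02 and 7.96 with SDPP, against 7.45, 7.15 and 7.17 in MC, without overlap but with an unadjusted p above the threshold. Bst2, the surface protein tetherin, was at 8.76, 8.90 and 8.73 with SDPP, against 8.36, 8.34 and 8.46 in MC. Mx1, Mx2, Oas2, Ddx58 and Trim30a were the other members without overlap, with log2 fold changes of 0.38 for Mx1, 0.39 for Ddx58, 0.42 for Oas2, 0.49 for Mx2 and 0.64 for Trim30a, none of them past the threshold. Irgm1 passed the threshold with overlap and did not without MC replicate 3 (0.50).

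Other genes of the same response overlapped between the groups. Irf7, the transcription factor that amplifies interferon production, was at 8.44, 8.29 and 7.90 with SDPP, against 7.18, 8.93 and 9.22 in MC. Oasl1, an antiviral protein of the OAS family, was at 9.86, 9.84 and 9.34 with SDPP, against 9.22, 10.42 and 10.56 in MC. Both overlapped between the groups, with MC replicate 1 lowest and MC replicates 2 and 3 highest, which is the order of the enterocyte markers. Isg15 was at 6.86, 6.99 and 6.79 with SDPP, against 6.30, 6.68 and 6.85 in MC, also with overlap. Sting1, the receptor for cyclic dinucleotides that leads to interferon induction, was not on the list, and it was at 7.22, 7.26 and 7.84 with SDPP, against 7.21, 6.32 and 6.14 in MC (0.88 ± 0.24, adjusted p = 0.32), with MC replicate 1 almost level with the lowest SDPP array.

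**Figure D2:**
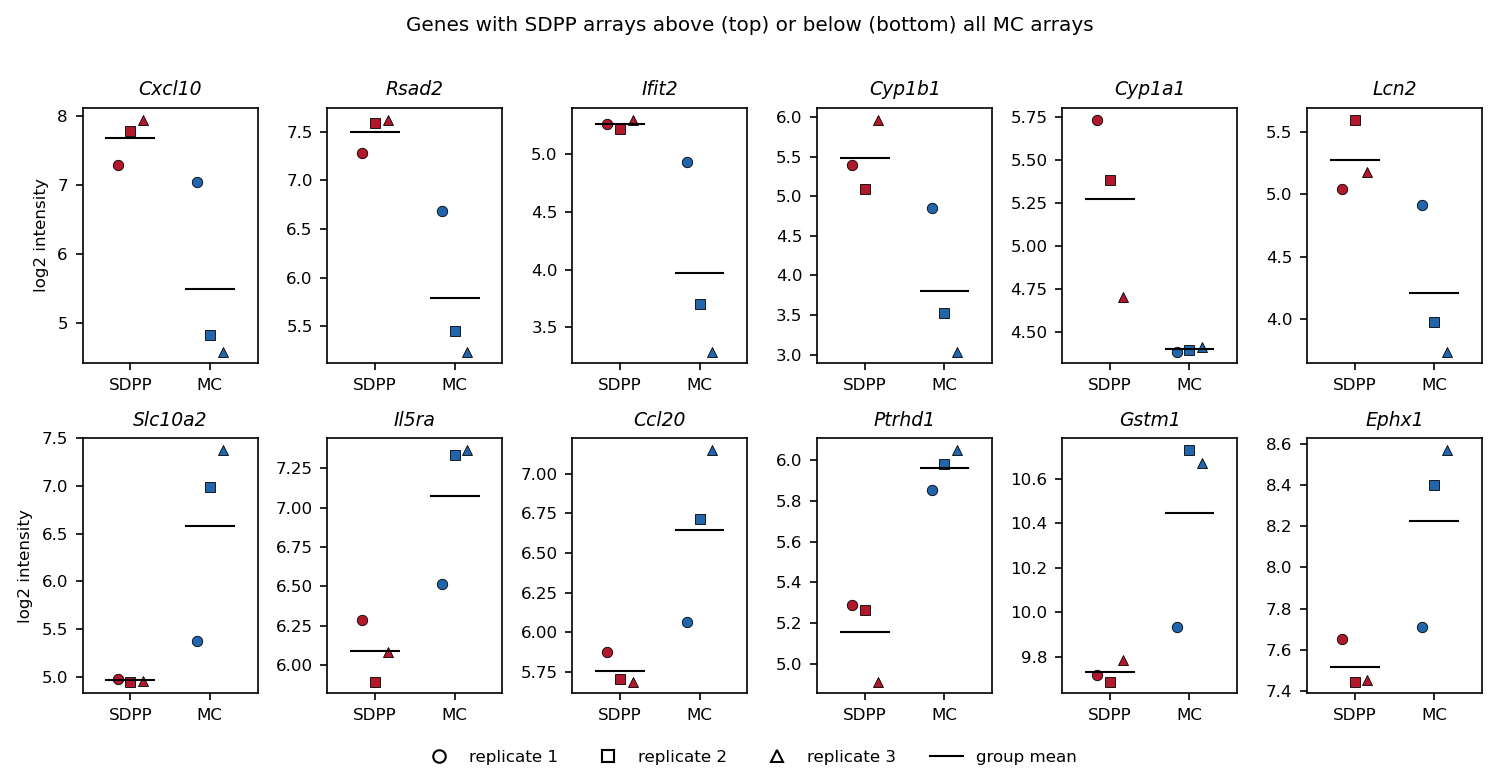
Log2 intensity of 6 genes above (top row) and 6 genes below (bottom row) all MC arrays, with SDPP left and MC right in each panel, a marker per replicate and a line at the group mean. MC replicate 1 lies nearest to the SDPP arrays in most panels, while Cyp1a1 and Ptrhd1 have 3 MC arrays close together.

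The promoters of these genes are shown because interferon acts through a short element, the interferon-stimulated response element. Its core was searched as TTCNNTTTC on both strands in RefSeq promoters of GRCm38.p6 that run from 250 bases before to 50 bases after the start of each gene. The core was present in 9 of the 11 interferon-stimulated genes without overlap that had a promoter sequence (81.8%). It was present in 8 of 15 members that overlapped (53.3%) and in 9.76% of all 27025 genes with a promoter sequence. A gene counted when any of its promoters held the core. Of all genes past the threshold without overlap, 9 of 40 higher genes (22.5%) and 1 of 16 lower genes (6.25%) held it. The higher genes with the core include Cxcl10, Rsad2, Gbp7, Ifit3 and Ifit3b of the interferon list, so their share is not separate from that list. A match is a description of these letters and not of a bound site. The stretches below carry the matches in capitals, read 5′ to 3′ along the strand of the gene, and overlapping matches are joined.
Cxcl10, chr5:92349069-92349127, minus strand: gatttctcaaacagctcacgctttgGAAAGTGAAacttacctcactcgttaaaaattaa
Rsad2, chr12:26456538-26456596, minus strand: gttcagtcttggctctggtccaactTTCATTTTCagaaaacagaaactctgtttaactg
Gbp7, chr3:142530259-142530317, plus strand: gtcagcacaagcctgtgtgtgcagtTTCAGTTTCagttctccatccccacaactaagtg
Bst2, chr8:71537563-71537627, minus strand: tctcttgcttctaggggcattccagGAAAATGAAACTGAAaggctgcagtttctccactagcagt
Ifit1, chr19:34640755-34640838, plus strand: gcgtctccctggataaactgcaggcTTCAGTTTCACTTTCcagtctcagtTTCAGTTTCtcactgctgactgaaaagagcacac
Ifit3, chr19:34583349-34583460, plus strand: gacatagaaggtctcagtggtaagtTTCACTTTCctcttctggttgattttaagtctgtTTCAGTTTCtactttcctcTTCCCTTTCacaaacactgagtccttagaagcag

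The stretch of Ifit3b at chr19:34607745-34607856 has the same letters as that of Ifit3. Cmpk2 and Ifit2 had no match in this window, which says only that these letters are not in it. Cxcl10 and Bst2 carry the core on the opposite strand, and Bst2, Ifit1 and Ifit3 carry it more than once. The AP-1 motif TGANTCA was present in 45.5% of the 11 genes and 8.97% of all genes with a promoter sequence. For the TEAD motif CATTCC these shares were 18.2% and 16.6%.

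Small RNAs made up 19 of the 64 higher genes, and 16 of them were snoRNAs. The snoRNAs were taken as a group after their values were seen, so their counts describe and do not test. Of 53 snoRNAs above background, 16 passed the threshold and were higher (1.65% of all genes above background), 22 were higher without overlap (4.87%), and none was lower by either measure. The median log2 fold change was 0.30, with 0.49 against MC replicate 1 and 0.20 against MC replicates 2 and 3. Their mean level was 7.26, 7.43 and 7.30 on the SDPP arrays and 6.71, 7.10 and 7.10 on the MC arrays. MC replicate 1 was thus lowest here, and it was the lowest MC array for all 16 snoRNAs past the threshold without overlap, the opposite of its place for most other genes described.

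Of the C/D box class, which guides methylation of ribosomal RNA, 10 of 29 members passed the threshold. Snord49a was at 9.80, 9.94 and 9.68 with SDPP, against 8.27, 9.10 and 8.91 in MC (1.05 ± 0.22, adjusted p = 0.314). Snord16a was at 9.59, 9.70 and 9.50 with SDPP, against 8.57, 8.88 and 8.82 in MC (0.84 ± 0.14, adjusted p = 0.114). Snord118, the U8 RNA that is needed for processing of the large ribosomal subunit, was at 4.93, 5.18 and 5.18 with SDPP, against 3.56, 4.36 and 4.34 in MC. In each of the 3 the SDPP arrays were close together and far above the highest MC array. Of the H/ACA class, which guides pseudouridylation, 6 of 23 passed. Snora21 was at 5.77, 5.80 and 5.63 with SDPP, against 4.70, 4.87 and 5.09 in MC (0.85 ± 0.15, adjusted p = 0.187), and Snora52 was at 10.23, 10.41 and 10.38 with SDPP, against 8.98, 9.70 and 9.69 in MC (0.89 ± 0.18, adjusted p = 0.314).

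The Y RNAs Rny1 and Rny3, which bind the Ro60 protein, and Rmrp, the RNA of RNase MRP that cuts precursor ribosomal RNA, were higher like the snoRNAs. Rny1 was at 7.29, 6.92 and 7.19 with SDPP, against 5.98, 6.48 and 6.19 in MC, and Rny3 at 10.61, 10.30 and 10.33 with SDPP, against 8.94, 9.81 and 9.81 in MC. Rmrp was at 12.50, 12.64 and 12.55 with SDPP, against 11.19, 12.34 and 12.14 in MC, and did not pass without MC replicate 1 (0.32). Of the 16 snoRNAs, 9 passed the threshold without MC replicate 1, and the same number with each of the 6 arrays left out in turn. All 16 passed when MC replicate 1 was the only control. Of 102 microRNA genes above background none passed the threshold, 4 were higher without overlap and 8 were lower, shares near the backgrounds of 4.87% and 6.45%. On the arrays of the other sources the mean snoRNA level ran from 7.12 to 7.55, so the SDPP arrays were not apart from them. RNA was isolated on columns of the RNeasy Mini kit, and how evenly these keep RNAs this short was not tested. The part of RNA quality or of the RNA extraction in these small RNA values was not tested either.

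**Figure D3:**
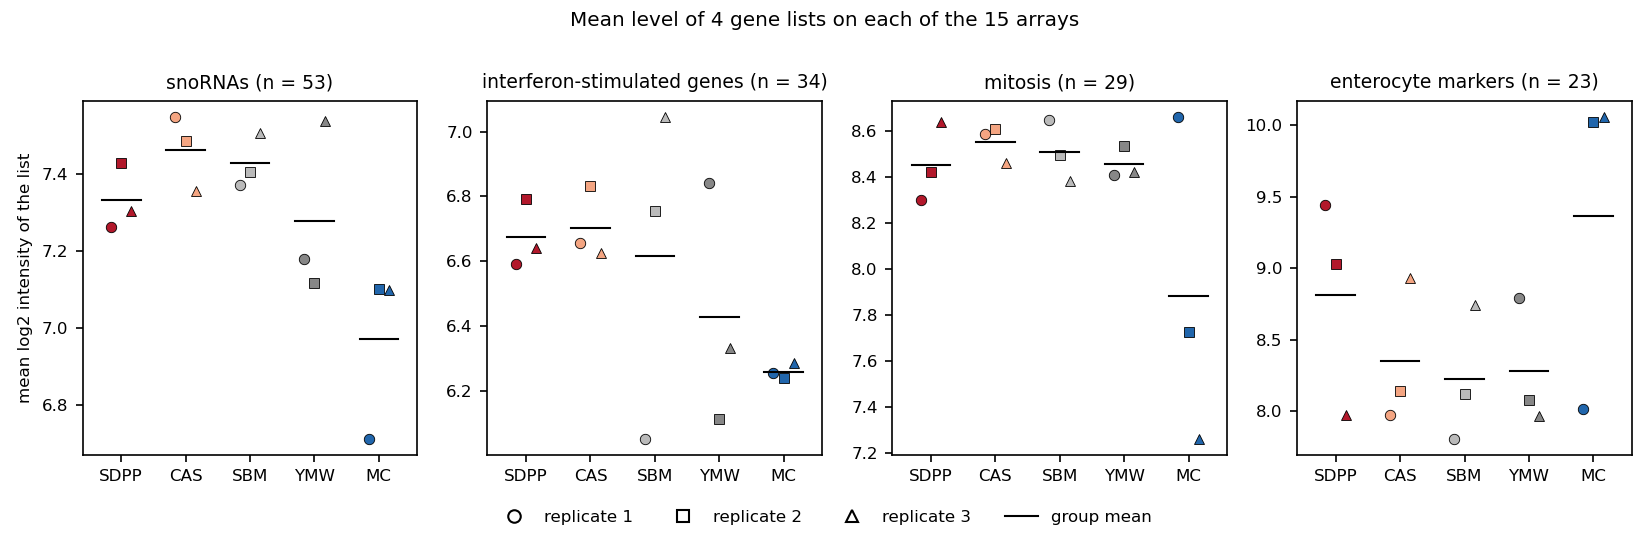
Mean log2 intensity of 4 lists on each of the 15 arrays, with SDPP at the left and MC at the right, a marker per replicate and a line at the group mean. SDPP lies above all MC arrays for snoRNAs and interferon-stimulated genes, whereas MC replicate 1 lies with the treated arrays for mitosis and enterocyte markers.

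Several histone genes rose with SDPP, while the list of mitosis genes was higher against MC replicates 2 and 3 and not against MC replicate 1. The replication-dependent histones are transcribed in S phase and lack a poly(A) tail. Of 18 above background, 7 passed the threshold and were higher (background 1.65%) and 9 were higher without overlap (background 4.87%), none was lower, and the median log2 fold change was 0.54. The median was 0.22 against MC replicate 1 and 0.69 against MC replicates 2 and 3. H4c6, a gene for histone H4, was at 9.89, 9.81 and 10.30 with SDPP, against 9.38, 9.45 and 9.04 in MC (0.71 ± 0.14, adjusted p = 0.287). H1f5, a linker histone, was at 9.21, 9.20 and 9.59 with SDPP, against 9.12, 8.56 and 7.94 in MC (0.79 ± 0.21, adjusted p = 0.32). H1f1 and H1f3 also met both conditions, with log2 fold changes of 0.63 and 0.60. All 3 MC arrays were below SDPP for H4c6, and for the linker histones MC replicate 1 came close. Histone H4 genes code for the same protein and are near copies, so their probes may share signal. H4c6 did not pass without SDPP replicate 3 (0.57), H1f5 not without MC replicate 3 (0.49), and H1f1 not without SDPP replicate 3 (0.48) or MC replicate 3 (0.44), and H1f3 not without SDPP replicate 1 (0.58), SDPP replicate 3 (0.57) or MC replicate 3 (0.47).

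For mitosis and cytokinesis, 15 of 29 genes passed the threshold and were higher (background 1.65%), none had groups without overlap (background 4.87%), and the median log2 fold change of 0.62 became 0.95 against MC replicates 2 and 3 and -0.21 against MC replicate 1. Mki67, the marker of cycling cells, was at 9.60, 9.81 and 10.15 with SDPP, against 10.13, 8.95 and 8.41 in MC. Plk1, a mitotic kinase, was at 9.82, 9.75 and 10.24 with SDPP, against 10.15, 9.17 and 8.60 in MC. Neither passed without SDPP replicate 3 (0.54 and 0.48), MC replicate 2 (0.58 and 0.57) or MC replicate 3 (0.32 and 0.28), and Mki67 also not without SDPP replicate 2 (0.71). The stem cell list had 3 of 16 members past the threshold and higher (background 1.65%) and none without overlap (background 4.87%). Olfm4, a secreted marker of crypt base stem cells, was at 11.41, 11.39 and 11.84 with SDPP, against 11.68, 10.06 and 8.54 in MC. It did not pass without MC replicate 3 (0.67). Among S phase genes, Pcna, the sliding clamp of DNA replication, was level, at 10.88, 10.90 and 10.87 with SDPP, against 10.88, 10.97 and 10.87 in MC. Of 24 S phase genes 1 passed the threshold and was higher (background 1.65%), and none was without overlap.

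**Figure D4:**
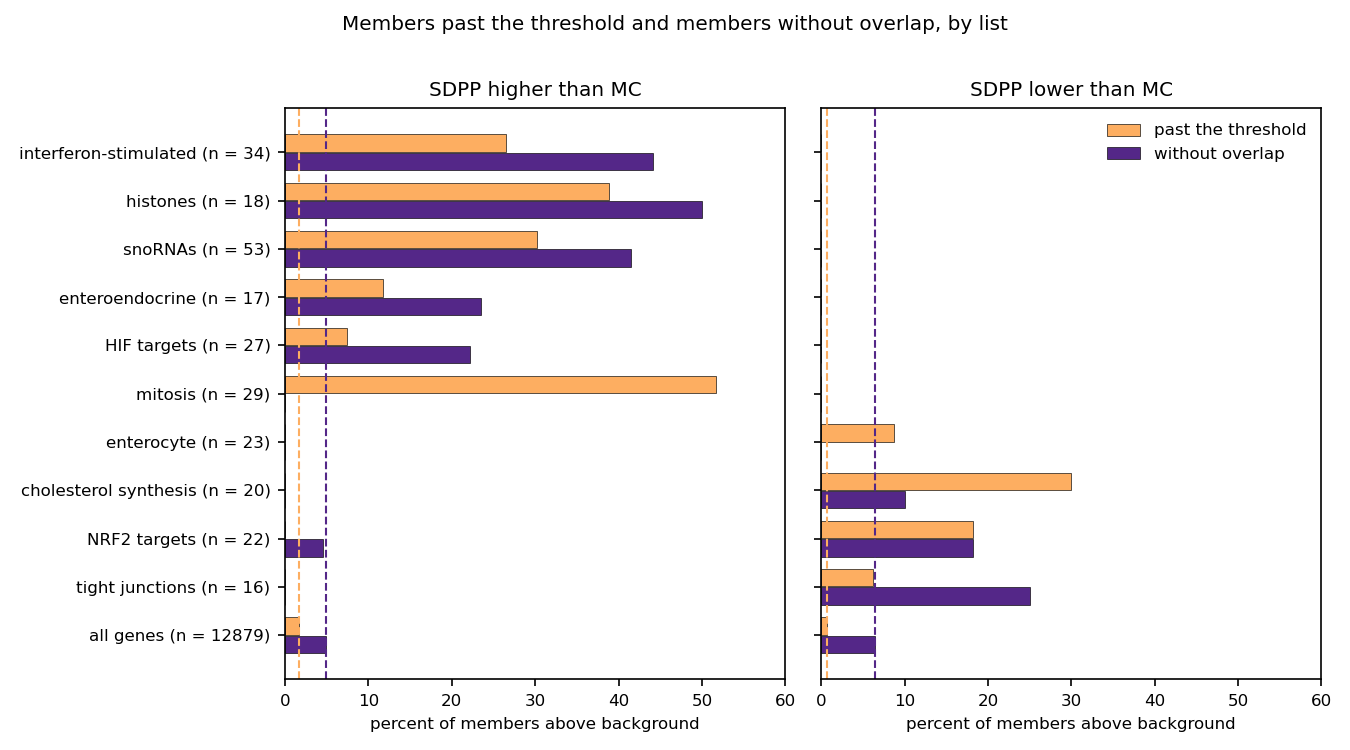
Percent of the members above background of 10 lists, and of all genes, that passed the threshold (orange) or had no overlap (purple), for genes higher (left) and lower (right) with SDPP than MC. Dashed lines mark all 12879 genes above background. On the left, interferon-stimulated genes, histones, snoRNAs, enteroendocrine markers and targets of hypoxia-inducible factors exceed both lines, and mitosis that of the threshold alone. The snoRNAs were chosen after their values were seen. On the right, NRF2 targets, cholesterol synthesis and tight junctions exceed both lines, and enterocyte markers that of the threshold alone.

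Enterocyte genes showed the reverse of the mitotic list. Of 23 markers, 2 passed the threshold and were lower (background 0.691% of genes above background) and none was without overlap (background 6.45%). Their median log2 fold change was -0.59 against all MC arrays, 0.75 against MC replicate 1 and -1.20 against MC replicates 2 and 3, so its sign turned with the control. Cholesterol synthesis genes had 6 of 20 members past the threshold and lower (background 0.691%), of which none was without overlap, and the median was -0.50. The members Nsdhl and Stard4 were lower without overlap, 2 of 20 beside a background of 6.45%, and the list median was 0.03 against MC replicate 1 and -0.79 against MC replicates 2 and 3. Msmo1, a sterol demethylase, was at 11.01, 10.93 and 10.48 with SDPP, against 10.84, 11.71 and 11.85 in MC. Stard4, a cytosolic sterol carrier, was at 8.80, 8.91 and 8.80 with SDPP, against 9.04, 9.33 and 9.25 in MC. Msmo1 did not pass without SDPP replicate 3 (-0.50), MC replicate 2 (-0.54) or MC replicate 3 (-0.47). The genes of triglyceride synthesis and chylomicrons had 1 of 23 past the threshold and lower (background 0.691%). This was Apob, the structural protein of chylomicrons, at 10.86, 10.57 and 10.09 with SDPP, against 10.43, 11.49 and 11.62 in MC. It did not pass without SDPP replicate 2 (-0.70), SDPP replicate 3 (-0.47), MC replicate 2 (-0.52) or MC replicate 3 (-0.45).

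The largest fall of the 21 lower genes was that of Slc10a2, the apical sodium-dependent bile acid transporter. It was at 4.98, 4.95 and 4.96 with SDPP, against 5.38, 6.99 and 7.38 in MC, 3.07-fold lower (-1.62 ± 0.34, adjusted p = 0.314). The SDPP arrays were nearly equal and the MC arrays ran from 5.38 to 7.38. It was the 1 member of 10 in the bile acid list that passed the threshold (background 0.691%) or had no overlap (background 6.45%). In the other sources it lay between 4.38 and 5.07.

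Genes of the response to foreign compounds moved in opposite directions. Cyp1b1, a P450 enzyme induced through the aryl hydrocarbon receptor, was at 5.39, 5.09 and 5.97 with SDPP, against 4.85, 3.53 and 3.04 in MC (1.68 ± 0.45, adjusted p = 0.32). Cyp1a1, the enzyme most used as a readout of that receptor, was at 5.74, 5.38 and 4.70 with SDPP, against 4.38, 4.39 and 4.41 in MC (0.88 ± 0.22, adjusted p = 0.314). The MC arrays were level for Cyp1a1, and the SDPP arrays ran from 4.70 to 5.74. Both genes passed with each of the 6 arrays left out in turn, and Cyp1a1 passed with MC replicate 1 as the only control. The other sources ran from 3.69 to 7.21 for Cyp1a1. Of 19 P450 genes above background these 2 were higher past the threshold (background 1.65%), and Cyp2b10 and Cyp3a11 were lower with overlap (background 0.691%). The receptor itself, Ahr, was at 7.82, 7.87 and 7.70 with SDPP, against 7.84, 8.05 and 8.26 in MC, with overlap.

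Of 22 targets of NRF2, the transcription factor of the antioxidant response, 4 passed the threshold and were lower (background 0.691%) and 4 were lower without overlap (background 6.45%). Txnrd1 was higher without overlap, 1 of 22 and so near the background of 4.87%. Gstm1, a glutathione transferase with close paralogs, was at 9.72, 9.69 and 9.78 with SDPP, against 9.94, 10.73 and 10.67 in MC (-0.71 ± 0.15, adjusted p = 0.314). Ephx1, which hydrolyses epoxides, was at 7.65, 7.45 and 7.46 with SDPP, against 7.71, 8.40 and 8.57 in MC (-0.71 ± 0.19, adjusted p = 0.319). Both had MC replicate 1 near the SDPP arrays, and they did not pass without MC replicate 2 (Gstm1, -0.57) or MC replicate 3 (Ephx1, -0.54). Me1, the cytosolic malic enzyme that makes NADPH, was at 8.81, 8.64 and 8.79 with SDPP, against 9.28, 9.36 and 9.31 in MC, with 3 MC arrays that were level. Its fold change of 1.48 was under the threshold. Other targets of the same factor, Hmox1, Nqo1 and Gclm, had log2 fold changes of -0.00, 0.04 and 0.03, and the median of the list was -0.03.

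Defence and signalling genes of the epithelium were mixed. Lcn2, a siderophore-binding protein that starves bacteria of iron, was at 5.04, 5.60 and 5.18 with SDPP, against 4.92, 3.98 and 3.74 in MC (1.06 ± 0.27, adjusted p = 0.314). Nod2, the sensor of muramyl dipeptide from bacterial walls, was at 5.17, 5.12 and 5.39 with SDPP, against 4.75, 4.54 and 4.56 in MC (0.61 ± 0.12, adjusted p = 0.314). For Nod2 all 3 MC arrays were close together, and it did not pass without SDPP replicate 3 (0.53), MC replicate 2 (0.57) or MC replicate 3 (0.58). Ccl20, the chemokine that draws CCR6-bearing lymphocytes and dendritic cells, was lower, at 5.87, 5.70 and 5.69 with SDPP, against 6.06, 6.71 and 7.15 in MC (-0.89 ± 0.21, adjusted p = 0.314). Il5ra, a receptor chain for interleukin 5, was at 6.29, 5.89 and 6.08 with SDPP, against 6.52, 7.33 and 7.37 in MC (-0.99 ± 0.23, adjusted p = 0.314). Ccl28, an epithelial chemokine for antibody-secreting cells, was at 8.16, 8.30 and 8.41 with SDPP, against 7.99, 7.85 and 7.59 in MC, and Cxcl16 was at 8.57, 8.15 and 8.30 with SDPP, against 8.64, 8.99 and 9.00 in MC. These last 2 were without overlap but under a fold of 1.5. Of 14 NF-kB feedback genes and targets, Lcn2 was the 1 past the threshold (background 1.65% for higher genes).

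Hormone and tuft cell genes had several members without overlap. Of 17 enteroendocrine markers above background, 2 passed the threshold (background 1.65%) and 4 were without overlap (background 4.87%), all higher. Tac1, which encodes substance P and is made by enterochromaffin cells, was at 6.66, 6.94 and 6.58 with SDPP, against 6.50, 4.70 and 4.83 in MC (1.38 ± 0.34, adjusted p = 0.314). Gcg, the precursor of glucagon-like peptides, was at 5.37, 5.55 and 5.08 with SDPP, against 4.85, 4.76 and 4.63 in MC (0.59 ± 0.22, adjusted p = 0.367). It did not pass without SDPP replicate 1 (0.57), SDPP replicate 2 (0.48) or MC replicate 3 (0.53). Chga, a protein of hormone granules, was at 8.68, 8.65 and 8.22 with SDPP, against 7.80, 8.06 and 8.00 in MC. Cck and Sct, the hormones cholecystokinin and secretin, overlapped, with log2 fold changes of 0.07 and -0.46. Of 8 tuft cell markers none passed the threshold and 4 were higher without overlap, beside the same background. The leading member was Pou2f3, the transcription factor on which tuft cells depend, at 5.32, 5.53 and 5.45 with SDPP, against 5.06, 4.85 and 5.07 in MC.

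Among 27 targets of hypoxia-inducible factors, 6 were higher without overlap (background 4.87%), 2 passed the threshold and were higher (background 1.65%) and none was lower by either measure, with a median log2 fold change of 0.03. Adm, the vasodilator peptide adrenomedullin, was at 9.09, 9.41 and 8.86 with SDPP, against 8.81, 8.37 and 8.43 in MC (0.59 ± 0.21, adjusted p = 0.36). Bnip3, a mitophagy receptor, was at 9.13, 9.19 and 8.81 with SDPP, against 8.66, 8.68 and 8.65 in MC, with level MC arrays. Ddit4, the other member past the threshold, overlapped and did not pass without MC replicate 3 (0.55). Hif3a, a paralog of the factor that can restrain it, had a log2 fold change of 0.74 and met both conditions, though it did not pass without MC replicate 3 (0.55). The placental growth factor Pgf was at 6.21, 6.52 and 5.97 with SDPP, against 5.71, 5.36 and 5.86 in MC. Adm and Pgf did not pass without SDPP replicate 2 (0.44 for both) or MC replicate 2 (0.50 and 0.45), and Adm not without MC replicate 3 (0.53). Trib3, a pseudokinase of the response to amino acid shortage, was at 8.13, 8.32 and 8.02 with SDPP, against 7.87, 7.34 and 7.40 in MC (0.62 ± 0.17, adjusted p = 0.32), but not past the threshold without SDPP replicate 2 (0.54), MC replicate 2 (0.52) or MC replicate 3 (0.55).

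Of 16 tight junction and claudin genes, 1 passed the threshold and was lower (background 0.691%), 4 others were lower without overlap (background 6.45%) and none was higher. Tjp1, the scaffold protein ZO-1, was at 10.10, 10.10 and 9.95 with SDPP, against 10.28, 10.37 and 10.35 in MC. Its fold change was 1.22. Cgn, which encodes cingulin, was at 9.30, 9.42 and 9.37 with SDPP, against 9.45, 9.81 and 9.88 in MC. The sealing claudins Cldn4 and Cldn7 overlapped, with log2 fold changes of 0.05 and -0.07.

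Arhgap8, a GTPase-activating protein, was at 7.06, 7.002 and 7.21 with SDPP, against 6.93, 5.71 and 5.62 in MC (1.01 ± 0.25, adjusted p = 0.314). Sema4c, a semaphorin that signals through plexin B2, was at 5.77, 5.80 and 6.05 with SDPP, against 5.55, 4.67 and 4.80 in MC (0.86 ± 0.20, adjusted p = 0.314). Ier3, an immediate early gene of cell survival, was at 9.47, 9.57 and 9.51 with SDPP, against 9.45, 8.40 and 8.44 in MC. In these 3 genes MC replicate 1 was next to SDPP, and Ier3 did not pass without MC replicate 2 (0.57). Usp17ld, of a family of near-identical deubiquitinases, had a log2 fold change of 0.82 ± 0.37 and did not pass without SDPP replicate 2 (0.68) or replicate 3 (0.82), nor without MC replicate 2 (0.73) or replicate 3 (0.81). Chst15, a sulfotransferase of chondroitin sulfate, rose by 0.80 on the log2 scale and passed with each array left out in turn. Bmp7, a ligand of the BMP pathway, rose by 0.74 and did not pass without MC replicate 3 (0.46).

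Some of the lower genes had MC arrays that were more nearly level. Ptrhd1, a peptidyl-tRNA hydrolase domain protein, was at 5.29, 5.26 and 4.91 with SDPP, against 5.85, 5.98 and 6.05 in MC, 1.75-fold lower (-0.81 ± 0.12, adjusted p = 0.114), and passed with each of the 6 arrays left out and with MC replicate 1 as the only control. Efemp1, an extracellular matrix protein also called fibulin-3, was at 7.12, 6.88 and 6.92 with SDPP, against 7.66, 7.48 and 7.54 in MC (-0.59 ± 0.15, adjusted p = 0.315). Pnoc, the precursor of the peptide nociceptin, was at 4.41, 3.98 and 4.09 with SDPP, against 4.77, 4.89 and 4.63 in MC. Efemp1 did not pass without SDPP replicate 2 (-0.54), SDPP replicate 3 (-0.56) or MC replicate 1 (-0.54), and Pnoc not without SDPP replicate 2 (-0.52), SDPP replicate 3 (-0.57) or MC replicate 2 (-0.54). Klhl13 was at 5.32, 5.26 and 5.02 with SDPP, against 5.76, 5.67 and 6.04 in MC, and Serpinb6b, of a serpin family with close paralogs, was at 7.86, 7.55 and 7.29 with SDPP, against 8.12, 8.07 and 8.45 in MC. Cstdc4, of the stefin family, was lower by a fold of 1.55. Klhl13, Serpinb6b and Cstdc4 did not pass without SDPP replicate 3 (-0.54, -0.51 and -0.50 in that order) or MC replicate 3 (-0.51, -0.53 and -0.53). In Tprg, Tmem62, Eif5a2, Slc2a6 and Rasgrf2, with log2 fold changes of -0.81, -0.76, -0.69, -0.65 and -0.64, MC replicate 1 was near the SDPP arrays. Without MC replicate 3, Tmem62 (-0.54), Eif5a2 (-0.44), Slc2a6 (-0.49) and Rasgrf2 (-0.49) did not pass, and without MC replicate 2 neither did Slc2a6 (-0.52) and Rasgrf2 (-0.53).

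Plasma is rich in albumin, immunoglobulin, transferrin, lipoproteins and clotting factors, and genes that handle such proteins were read as lists. Of 7 genes for immunoglobulin receptors and complement none passed the threshold and 1, Cr1l, a complement regulator, was lower without overlap (background 6.45%). Pigr, which carries IgA across the epithelium, was at 11.11, 11.16 and 11.20 with SDPP, against 11.30, 11.18 and 11.08 in MC. Of 14 genes for the uptake of albumin, transferrin and lipoproteins, Clu passed the threshold and was higher (background 1.65%). Lrp5 was higher without overlap (background 4.87%) and Tfrc lower without overlap (background 6.45%). Clu, which encodes the secreted chaperone clusterin, was at 11.83, 11.68 and 11.93 with SDPP, against 12.04, 9.97 and 9.68 in MC, with overlap, and did not pass without MC replicate 3 (0.81). Of 13 genes of coagulation and protease receptors, 1 was higher (background 1.65%) and 1 lower (background 0.691%) past the threshold and none was without overlap. Of 19 genes for iron and haem, Lcn2 was higher by both measures (backgrounds 1.65% and 4.87%), and Tfrc and Aco1 were lower without overlap (background 6.45%). Aco1, the iron regulatory protein 1, was at 9.05, 8.99 and 9.11 with SDPP, against 9.13, 9.29 and 9.22 in MC. The ferritin chain Fth1 overlapped, at 12.48, 12.40 and 12.11 with SDPP, against 12.29, 12.67 and 12.78 in MC, as did the iron exporter Slc40a1.

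To show where SDPP differed from the other protein sources, its mean was tested against the mean of CAS, SBM and YMW, a contrast without MC arrays. Past the threshold were 3 of 18820 genes (0.0159%), all higher, and none had an adjusted p under 0.05 (0.0%), with 456 at an unadjusted p under 0.05 (2.42%). Fkbp5, a co-chaperone of the glucocorticoid receptor, was at 8.85, 8.74 and 8.38 with SDPP and from 7.50 to 8.20 with the other sources, with a difference of 0.76 ± 0.20 (adjusted p = 1.00). All 3 SDPP arrays lay above all 9 arrays of the other sources, and inside the range of the MC arrays, at 8.12, 8.89 and 9.32. Id3, an inhibitor of differentiation induced by BMP, was at 7.45, 7.31 and 6.51 with SDPP and from 5.99 to 7.32 with the other sources (0.70 ± 0.32, adjusted p = 1.00). It did not pass without SDPP replicate 1 (0.52) or SDPP replicate 2 (0.59), nor without CAS replicate 1 or 2, SBM replicate 1 or 2, or any YMW array. The predicted gene Gm13884 was the third (0.66 ± 0.19), and it did not pass without SDPP replicate 2 (0.56). The count was 84 without SDPP replicate 3, 8 without SDPP replicate 1, 1 without SDPP replicate 2, 7 without CAS replicate 3 and 5 without SBM replicate 3. Without SDPP replicate 2 the remaining 1 was Fkbp5. The comparisons of each source with the MC share the MC arrays. The interferon-stimulated genes had median log2 fold changes from the MC of 0.28 for SDPP, 0.35 for CAS, 0.25 for SBM and 0.14 for YMW, and the snoRNAs had 0.30 for SDPP, 0.44 for CAS, 0.41 for SBM and 0.24 for YMW.

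In 50 genes (0.266%) the SDPP arrays lay beyond all 12 other arrays, 20 above (0.106%) and 30 below (0.159%). This count is a description and not a test. Genes can take such an order without any difference between groups, so the count alone does not show one. None of the 50 had an adjusted p under 0.05 in the limma fit, from the other sources or from the MC. The widest gap was that of Tfrc, the transferrin receptor through which cells take up iron-loaded transferrin. It was at 9.79, 9.74 and 9.74 with SDPP, from 9.99 to 10.53 with the other sources and at 10.06, 10.21 and 10.09 in the MC. The difference was -0.46 ± 0.08 from the other sources (adjusted p = 0.432) and -0.36 ± 0.09 from the MC (adjusted p = 0.315), a fold of 1.28. The SDPP arrays were nearly equal, and all other arrays lay above them. Cyld, a deubiquitinase that restrains NF-kB, was at 7.22, 7.20 and 7.16 with SDPP, from 7.28 to 7.45 with the other sources and at 7.57, 7.51 and 7.52 in the MC. Il27, a cytokine subunit, was at 4.76, 4.66 and 4.70 with SDPP, from 4.81 to 4.97 with the other sources and at 5.22, 4.96 and 5.09 in the MC. Uros, an enzyme of haem synthesis, and the cadherin Cdh4 were also below, with log2 differences from the other sources of -0.19 and -0.28. Tpcn2, a cation channel of endosomes and lysosomes, was above all others, at 6.60, 6.61 and 6.54 with SDPP, from 6.04 to 6.40 with the other sources and at 6.39, 6.19 and 6.39 in the MC. Nprl2, a subunit of the complex that holds back mTORC1 when amino acids are short, was at 6.80, 6.78 and 6.57 with SDPP and from 6.41 to 6.56 with the other sources. All these differences were under a fold of 1.5.

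**Figure D5:**
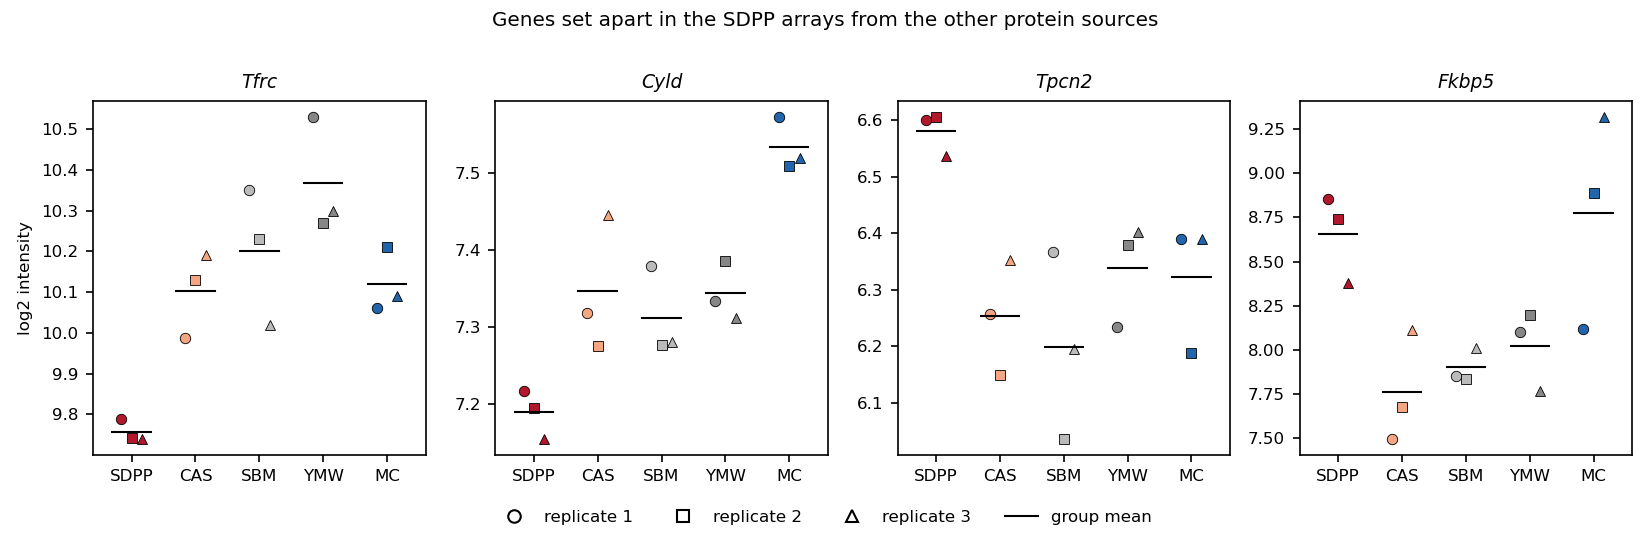
Log2 intensity of 4 genes on each of the 15 arrays, with SDPP at the left and MC at the right, a marker per replicate and a line at the group mean. The SDPP arrays lie below all 12 others for Tfrc and Cyld and above them for Tpcn2, while for Fkbp5 they lie above the other sources and within the MC range.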

How the data were processed

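RNA from 15 samples, 3 per group, was hybridised to 1-colour Affymetrix mouse gene 1.1 ST arrays. Each sample pooled 3 wells. The intensities were background-corrected and normalized together by RMA before the authors deposited them. The deposited intensity values were on a linear scale, from 3.02 to 10739, and not on the log2 scale that had been assumed, so log2 was taken here. Of 35556 probe sets, 21218 had 1 gene symbol in the platform annotation, 1881 had several and 12457 had none, and the probe set with the highest mean stood for each of 18820 genes. Background was log2 3.91, below which 95% of 1155 genes for odorant and pheromone receptors lay, and 12879 genes had a mean above it.

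Group means were fitted on all 15 arrays with limma 3.58.1 in R 4.3.3 (moderated test with a variance trend), with Benjamini-Hochberg adjustment over all genes. SE and adjusted p come from this fit. The same fit was run on simulated data with equal spread in all groups, which does not test it under the wider MC spread. The number of arrays limits the precision. The smallest p of an exact permutation test of 3 arrays against 3 is 0.1, so none was used. Genes were named by the size of their change among those past the threshold without overlap and by lists of pathways and cell types, and a few for contrast after their values were seen. Members and lists were chosen with earlier results of these data known. Alternatives tried were leaving out each array, MC replicate 1 as the only control, array weights, a replicate block, no variance trend, a second quantile normalization, only the compared arrays, genes above background alone, all named probe sets and no limit on the fold. Genes with close copies (Ifit3 and Ifit3b, histones, Gstm1, Serpinb6b, Cstdc4, Usp17ld) may share probe signal.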

Additional observations from a re-analysis of the deposited data

Results flagged for a closer look

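In 3 genes the difference of SDPP from the mean of the other protein sources passed the threshold, by the test of that difference, which uses no MC array. It was 0.76 for Fkbp5, 0.70 for Id3 and 0.66 for Gm13884 on the log2 scale, each higher with SDPP, and none passed the adjustment over all genes.

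Probe sets with several gene names or none were outside the comparisons. Of 14338 such probe sets, 7170 were above background, and 82 of these were at least 1.5-fold higher with SDPP and above all 3 MC arrays, with a median log2 difference of 0.77. In the other direction there were 127. No p threshold was applied to these probe sets, so their counts are not like those of named genes. Of 12879 named genes above background, 64 were higher (0.497%) and 19 lower (0.148%) by both conditions, which include a p threshold. MC replicate 1 was the lowest MC array in 23 of the 82.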

How the results depend on the processing

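The number of genes past the threshold for SDPP against MC was 306. It was 148 with only the SDPP and MC arrays in the fit, 970 with array weights, 140 with MC replicate 1 as the only control (the lone sample is assumed to vary like the other groups) and 2259 with no limit on the fold. It ran from 85 without MC replicate 3 to 1379 without MC replicate 1. The number with an adjusted p under 0.05 was 0, against 2937 with array weights, 1 among genes above background alone, and 0 to 3083 with an array left out. Genes without overlap numbered 2025, and 3054 to 8092 with an array left out, where fewer arrays have to be separated. Genes meeting both conditions numbered 85, against 972 with no limit on the fold and 61 to 1372 with an array left out. For SDPP against the other sources, 3 genes passed, against 20 with only the treated arrays, 46 with array weights and 1 to 84 with an array left out. The 50 genes beyond all other arrays were 21 among genes above background alone. Apart from fewer arrays or genes, the cause was not tested.

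With the replicate block the counts were 300, 0, 83 and 3. Deviations of same-numbered SDPP and MC arrays correlated at -0.52, 0.18 and -0.59. With 3 arrays a group, this cannot show whether same-numbered arrays share a mouse or a plate. With MC replicate 1 as the only control the sign turned for Olfm4 (-0.14), Plk1 (-0.21), Mki67 (-0.27), Clu (-0.23), Apob (0.080), Id3 (0.99) and Irf7 (1.03). These are named genes that passed the threshold with all MC arrays or with that control. The sign also turned for named genes that passed with neither, among them Alpi and Oasl1. Of 64 named genes past the threshold, 13 stayed past it with that control, and 32 lost it without MC replicate 3, 17 without MC replicate 2, 2 without MC replicate 1 and 19 without SDPP replicate 3. Low signal near background limits the faintest genes named.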
